A study of Mus musculus with 6 samples.

Results

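The genes described here encode 10 cell surface proteins through which myoblasts, the precursor cells of muscle, adhere to and recognise one another: the cadherins Cdh15, Cdh2 and Cdh11, the receptors Cdon, Boc and Neo1, and the immunoglobulin (Ig) superfamily proteins Jam2, Jam3, Kirrel and Vcam1. They were picked by gene symbol as proteins of myoblast contact and fusion, with earlier results of these data known, and are 10 of the 26431 genes in the table. RNA from whole tibialis anterior (TA) muscle was sequenced in 6 mice. The injured group held 3 mice whose TA muscle was taken at day 3 after an injection of 50 µl of 10 µM cardiotoxin (CTX), a snake venom toxin from Naja mossambica mossambica that destroys muscle fibres and sets off regeneration. The other group held 3 mice with uninjured, untreated muscle. All 6 were C57BL/6 animals aged 8 to 10 weeks and labelled female, with no genetic alteration named. The comparison addresses which transcripts change as muscle regenerates.

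Myoblasts must touch, adhere and align before their membranes can fuse into a multinucleated fibre. Classical cadherins join like to like across the gap between cells, in the presence of calcium, and are tied to actin inside the cell by catenins. CDON and BOC sit in the membrane beside cadherins and pass contact on to the myogenic programme, while JAM, KIRREL and VCAM1 proteins engage other surface partners through their Ig domains.

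Levels are given as RPKM, in which a transcript's reads are divided by its length and by the library's mapped reads, so that genes of unequal length can be compared. Each library held 34202861 to 43062684 mapped reads, as recovered from the RPKM values. Every member was covered by at least 92 reads in every library. The test was limma, fitted to log2(RPKM + 0.1) over all 14446 genes with a mean of at least 0.5 RPKM, and a call took both a 2-fold difference and a p below 0.05 after Benjamini-Hochberg adjustment. All log2 fold changes below are from that fit, and folds are ratios of mean RPKM. Most genes moved in this table: 60.5% of those tested were called higher, 7.96% lower and 31.5% neither, and the median log2 fold change was 1.35. The summed level of 8 adult fibre markers was 1204 to 5954 RPKM at day 3, against 33846 to 36686 in uninjured muscle, and all 8 fell, while all 10 macrophage and monocyte markers rose, their sum being 4317 to 6032 RPKM at day 3 and 32.7 to 48.6 in uninjured muscle. Fibroblast markers rose for 9 of 10 genes (2447 to 2684 RPKM at day 3, 253 to 392 uninjured) and markers of dividing cells for 6 of 6 (268 to 329 at day 3, 13.9 to 15.4 uninjured). Of 9 markers of myoblasts and new fibres, 7 rose and 1 fell, with sums of 1299 to 1897 RPKM at day 3 and 1291 to 1389 RPKM in uninjured muscle. Most of the uninjured sum came from Des (537 RPKM at day 3, 898 uninjured, not called) and from Myh8, the gene that fell (62.1 and 387 RPKM), while the other 7 rose, Myog having 435 RPKM at day 3 and 2.17 RPKM in uninjured muscle. No list had a marker without reads throughout a group, and the part of each cell type in the results that follow was not tested. In bulk muscle, fewer cells of a type and less RNA per cell cannot be told apart.

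All 10 members passed the filter on low values. Of these, 8 rose at day 3, none fell, and Neo1 and Jam2 met the adjusted p but not the 2-fold minimum, set against the 60.5% and 7.96% of all genes called higher and lower. The median log2 fold change of the 10 was 2.98. In 9 members every day 3 library lay above every uninjured library, as in 78.5% of all genes tested, and in Jam2 every day 3 library lay below, as in 14.5%. By adjusted p alone, without the 2-fold minimum, 9 members were higher and 1 was lower, beside 78.0% and 14.1% of all genes.

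**Figure D1:**
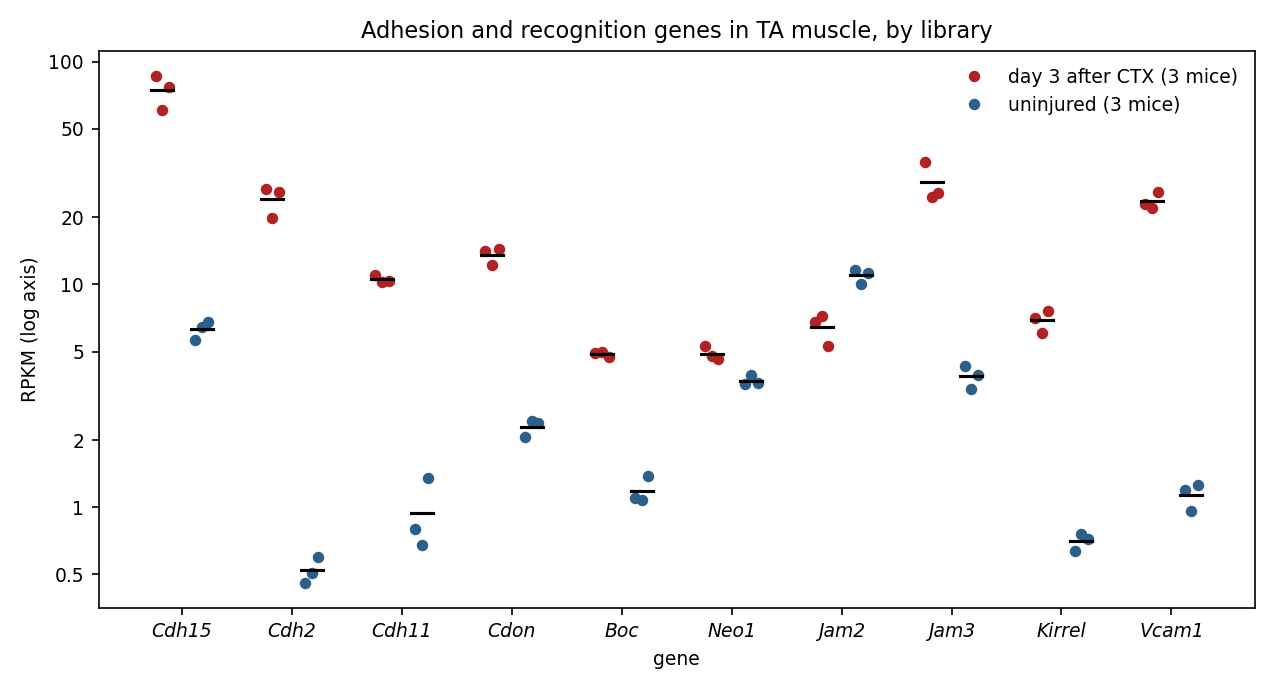
RPKM of the 10 genes on a log axis, with 1 point per mouse (red for day 3 after CTX, blue for uninjured) and a bar at each group's mean. Day 3 points lie above uninjured points for 9 genes; Jam2 is the exception, with means of 6.42 RPKM at day 3 and 10.996 RPKM in uninjured muscle.

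The 3 cadherins rose together, by 11.1-fold to 46.3-fold. Cdh15 encodes M-cadherin, the cadherin of satellite cells, the resident stem cells of muscle, and of myoblasts. It had 86.1, 60.4 and 76.9 RPKM in the day 3 muscles, against 5.63, 6.48 and 6.81 RPKM in the uninjured muscles. It was the most abundant member at day 3 in each library, and its lowest day 3 value lay far above its highest uninjured value. Its means were 74.4 ± 13.0 and 6.30 ± 0.609 RPKM at day 3 and uninjured (SD, n = 3 each), an 11.8-fold difference (log2 fold change 3.53, SE 0.14, limma adjusted p = 3.17e-07).

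Cdh2, N-cadherin, the classical cadherin that myoblasts share with nerve and heart muscle, had the largest change of the 10. Its level was 26.7, 19.9 and 25.9 RPKM at day 3, against 0.460, 0.506 and 0.600 RPKM in uninjured muscle, where it was the scarcest member, with 92 to 108 reads a library. The 46.3-fold difference (log2 fold change 5.28, SE 0.14, limma adjusted p = 1.13e-07) exceeded the log2 fold change of 97.4% of the genes tested.

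Cdh11, a cadherin first known from osteoblasts and common in mesenchymal cells, had 11.03, 10.2 and 10.3 RPKM at day 3, against 0.799, 0.679 and 1.36 RPKM in uninjured muscle. The day 3 libraries were close together, whereas the third uninjured library stood above the other two and brought that group's coefficient of variation to 38.4%. The groups did not overlap, and the change (11.1-fold, log2 fold change 3.40, SE 0.22, limma adjusted p = 3.31e-06) carried the widest error of the 10 genes.

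The 3 cadherins summed to 90.5 to 124 RPKM at day 3 and 6.89 to 8.77 RPKM in uninjured muscle, and their mix differed. Cdh15 made up 68.1% ± 1.41 of the sum at day 3 and 81.3% ± 3.45 in uninjured muscle (SD, n = 3 each). Cdh2 made up 22.2% ± 0.664 at day 3 and 6.71% ± 0.120 in uninjured muscle, while Cdh11 held 9.78% ± 1.33 and 12.0% ± 3.33. Each uninjured share of Cdh15 was above every day 3 share, and each uninjured share of Cdh2 below.

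Within a library, the scaling of that library cancels from the plain ratio of 2 genes. The 4 ratios given here are plain ratios of RPKM, but the groups were compared on log2 after 0.1 RPKM was added to each gene. With 0.1 added the scaling cancels only in part, least so where a level is low, as for Cdh2 in uninjured muscle. Cdh15 exceeded Cdh2 by 3.22, 3.03 and 2.97 times at day 3, against 12.2, 12.8 and 11.3 times in uninjured muscle. With 0.1 added, the groups differed by -1.75 on the log2 scale. The ratios did not overlap, and the exact two-sided permutation p was 0.10, the smallest that 3 against 3 libraries can give, so no ratio here can reach 0.05 (0.133 after Benjamini-Hochberg adjustment over the 4 ratios). Cdh15 exceeded Cdh11 by 7.81, 5.90 and 7.45 times at day 3, against 7.05, 9.53 and 5.01 times in uninjured muscle. These overlapped, and their log2 difference of 0.13 was smaller than the spread between libraries (exact permutation p = 0.7, adjusted p = 0.7).

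**Figure D2:**
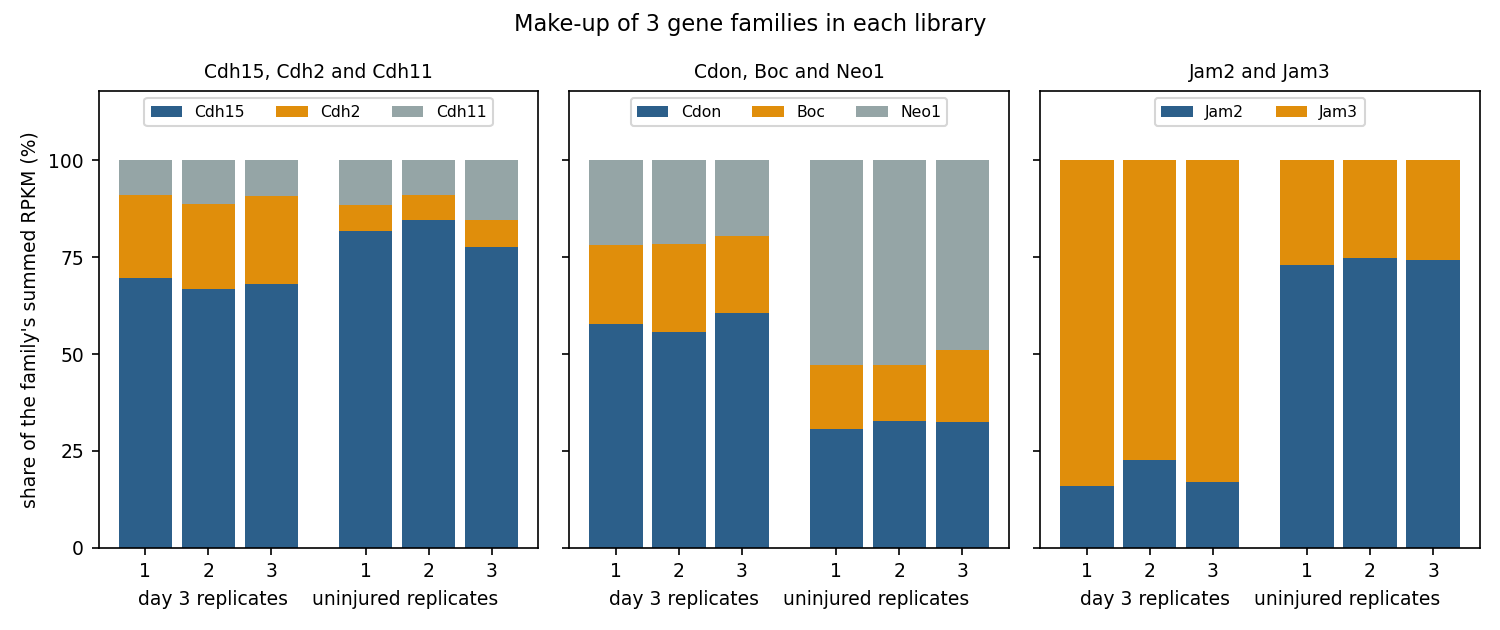
Share of each gene (percent, vertical axis) in the summed RPKM of its family, with 1 bar per library and the 3 day 3 libraries left of the 3 uninjured libraries. Cdh2 takes 22.2% of the cadherin sum at day 3 and 6.71% in uninjured muscle, Neo1 21.0% and 51.6% of its family's sum, and Jam3 81.5% and 26.0% of the Jam2 and Jam3 sum.

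The M-cadherin gene lies at chr8:122847966-122867397 on the plus strand (GRCm38, GENCODE M21). The RefSeq promoter windows, which run from 250 bases before to 50 after a transcript start, hold 4 of the 10 members. The windows of Cdh15 and Neo1 are shown because the first gene rose and the other was not called. That of Cdh15 (chr8:122848124-122848423, plus strand, GRCm38.p6) belongs to a start 408 bases inside the gene as GENCODE bounds it, and that of Neo1 (chr9:59036392-59036691, minus strand) to the outermost start. The windows of Kirrel and Cdon belong to starts 210 and 30948 bases inside their genes. Capitals mark each E-box (CANNTG, read on both strands, which for this motif coincide). This is the general form of site that basic helix-loop-helix factors, the myogenic ones among them, bind.
Cdh15: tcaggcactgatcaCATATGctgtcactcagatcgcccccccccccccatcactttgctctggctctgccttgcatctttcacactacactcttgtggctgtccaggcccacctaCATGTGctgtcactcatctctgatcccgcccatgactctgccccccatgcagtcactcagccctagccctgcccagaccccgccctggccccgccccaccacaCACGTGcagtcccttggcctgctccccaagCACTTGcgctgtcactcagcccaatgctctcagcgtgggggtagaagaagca
Neo1: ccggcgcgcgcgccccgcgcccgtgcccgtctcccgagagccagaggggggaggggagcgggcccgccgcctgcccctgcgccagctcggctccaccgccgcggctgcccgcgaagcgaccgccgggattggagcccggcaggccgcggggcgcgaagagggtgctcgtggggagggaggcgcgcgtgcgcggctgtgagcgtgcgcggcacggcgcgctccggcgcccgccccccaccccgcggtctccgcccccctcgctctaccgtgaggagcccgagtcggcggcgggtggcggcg

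The Cdh15 window holds 4 E-boxes, beginning 236, 135, 32 and 2 bases before the start. Those of Neo1, Cdon and Kirrel hold 0, although Cdon and Kirrel were called higher as Cdh15 was. Of all 32851 RefSeq windows, 72.3% hold at least 1 E-box and 6.49% hold 4 or more. The third of the Cdh15 E-boxes reads CACGTG, present in 7.15% of windows. Another form, CAGCTG, is present in 16.3% of windows but in none of those of Cdh15, Neo1, Cdon and Kirrel. Binding by any factor was not tested. A match describes the letters in the window only.

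Of the 3 receptor genes, Cdon and Boc rose and Neo1 was not called. Cdon encodes an Ig and fibronectin type III receptor that binds cadherins in myoblasts and also serves as a co-receptor for Hedgehog ligands. It had 14.1, 12.2 and 14.4 RPKM at day 3, against 2.06, 2.44 and 2.38 RPKM in uninjured muscle. No value of one group came near the other, and the 5.91-fold difference had a small error (log2 fold change 2.51, SE 0.10, limma adjusted p = 3.01e-07).

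Boc, the close relative of Cdon with which it forms complexes, had 4.95, 4.95 and 4.74 RPKM at day 3, against 1.10, 1.07 and 1.38 RPKM in uninjured muscle. The day 3 libraries were almost level with each other. Its 4.12-fold difference (log2 fold change 1.96, SE 0.11, limma adjusted p = 1.52e-06) was the smallest of the 8 members called, and 66.3% of the genes tested had a lower log2 fold change.

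Neo1 encodes neogenin, a receptor of netrins and of repulsive guidance molecules (RGM) built on the same plan. It had 5.29, 4.76 and 4.64 RPKM at day 3, against 3.56, 3.93 and 3.60 RPKM in uninjured muscle. The groups did not overlap, but the means of 4.90 ± 0.343 and 3.70 ± 0.206 RPKM (day 3 and uninjured, SD, n = 3 each) differed by only 1.32-fold (log2 fold change 0.40, 95% interval 0.20 to 0.60, limma adjusted p = 0.00279), short of the 2-fold minimum and below the median of all genes.

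The receptors took unlike shares of their summed level, which was 22.0 to 24.3 RPKM at day 3 and 6.72 to 7.45 RPKM in uninjured muscle. Cdon held 58.0% ± 2.38 at day 3 and 31.9% ± 1.12 in uninjured muscle, and Neo1 21.0% ± 1.26 and 51.6% ± 2.30 (SD, n = 3 each). Boc held 21.0% ± 1.403 at day 3 and 16.5% ± 2.15 in uninjured muscle. Cdon exceeded Boc by 2.84, 2.47 and 3.03 times at day 3, against 1.87, 2.27 and 1.73 times in uninjured muscle, without overlap. The log2 difference with 0.1 RPKM added to each gene was 0.55 (exact two-sided permutation p = 0.10, adjusted p = 0.133).

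Neo1 (chr9:58874687-59036441, minus strand, GRCm38) and Kirrel were each listed as 2 transcripts of nearly equal length, 7307 and 7388 bases for Neo1 and 7287 and 7284 bases for Kirrel. The transcript used held 48.8% to 51.2% of the summed RPKM of Neo1 and 49.1% to 51.4% of that of Kirrel, and the rule for sharing out reads that match both is not given in the sources used here, so the 2 forms of each gene cannot be told apart. To make the size of such a difference plain, the stretches by which 2 GENCODE M21 transcripts of each gene differ are shown in capitals. Their match to the 2 listed RefSeq transcripts was not tested. Neo1 has 81 bases that only the longer of these GENCODE transcripts carries, a whole exon (exon 21, chr9:58902083-58902115) and the first bases of exon 17 (chr9:58907047-58907094). Kirrel has 3 bases in exon 2 (chr3:87141120-87141122), shown with 24 bases on each side in lower case. All are exonic and on the minus strand of GRCm38.
Neo1 exon 21: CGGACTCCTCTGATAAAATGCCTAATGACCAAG
Neo1 exon 17 start: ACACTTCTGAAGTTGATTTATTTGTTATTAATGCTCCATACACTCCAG
Kirrel exon 2: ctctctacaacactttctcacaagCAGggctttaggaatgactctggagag

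With both transcripts added, Neo1 had 10.3, 9.35 and 9.50 RPKM at day 3, against 7.03, 7.85 and 7.05 RPKM in uninjured muscle (log2 fold change 0.41). The sum for Kirrel was 13.8, 12.0 and 15.1 RPKM at day 3, against 1.28, 1.48 and 1.47 RPKM in uninjured muscle (log2 fold change 3.18). Adding the second transcript raised the level of each gene in both groups and left its log2 fold change close to the value above.

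Jam2 and Jam3 encode the junctional adhesion molecules JAM-B and JAM-C, which bind each other across cell contacts of endothelium and, in zebrafish, are needed for fusion of muscle precursors. Jam3 had 35.6, 24.8 and 25.7 RPKM at day 3, against 4.30, 3.41 and 3.93 RPKM in uninjured muscle, with the first day 3 library above the other two. It rose 7.40-fold (log2 fold change 2.84, SE 0.15, limma adjusted p = 1.30e-06).

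Jam2 was the only member with lower values at day 3. It had 6.75, 7.25 and 5.27 RPKM at day 3, against 11.6, 10.1 and 11.3 RPKM in uninjured muscle, where it was the most abundant of the 10. The means, 6.42 ± 1.03 and 10.996 ± 0.804 RPKM (SD, n = 3 each), differed by 1.71-fold (log2 fold change -0.78, 95% interval -1.08 to -0.47, limma adjusted p = 6.77e-04), short of the 2-fold minimum. With the deposited RPKM, none of 10 endothelial markers was called in either direction, and their sum was 122 to 128 RPKM at day 3 and 97.0 to 110 RPKM in uninjured muscle. Kdr (8.74 RPKM at day 3, 13.2 uninjured, log2 fold change -0.59) and Tek (-0.14) were lower. The other markers of the list were higher, and the list median was 0.40. Cdh5 and Pecam1 had log2 fold changes of 0.34 and 0.69 with the deposited RPKM. Under median-of-ratios scaling they stood at -1.002 and -0.64, and under quantile normalization at -0.57 and -0.37. Ribosomal protein scaling gave -1.78 and -1.42, and ERCC scaling put Cdh5 at -0.086. The part of endothelium in the Jam2 values was not tested.

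The balance of the pair turned over. Jam3 made up 81.5% ± 3.59 of the 2 genes' summed RPKM at day 3 and 26.0% ± 0.886 in uninjured muscle (SD, n = 3 each). The Jam3 to Jam2 ratio was 5.27, 3.42 and 4.88 at day 3, against 0.370, 0.338 and 0.348 in uninjured muscle. With 0.1 RPKM added to each gene, the ratio differed 12.3-fold between the groups (3.62 on the log2 scale, exact two-sided permutation p = 0.10, adjusted p = 0.133). Jam3 exceeded Jam2 in every day 3 library and fell short of it in every uninjured one.

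Kirrel encodes a protein of the kidney slit diaphragm, related to the fly proteins Kirre and Roughest by which founder myoblasts attract and bind fusion partners. It had 7.05, 6.07 and 7.59 RPKM at day 3, against 0.634, 0.761 and 0.723 RPKM in uninjured muscle. Both groups were tight, and the 9.77-fold difference (log2 fold change 3.12, SE 0.12, limma adjusted p = 2.50e-07) far exceeded the spread between libraries.

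Vcam1 encodes the adhesion molecule that binds the integrin pair of ITGA4 and ITGB1 on leukocytes and on muscle cells. It had 23.1, 22.1 and 25.9 RPKM at day 3, against 1.20, 0.963 and 1.25 RPKM in uninjured muscle. The day 3 values clustered closely, and the 20.8-fold difference (log2 fold change 4.27, SE 0.11, limma adjusted p = 1.13e-07) was second to that of Cdh2.

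In GRCm38, Cdon lies at chr9:35421128-35507652 and Jam2 at chr16:84774123-84825928 on the plus strand. On the minus strand lie Cdh2 at chr18:16588877-16809246, Cdh11 at chr8:102632095-102785642, Boc at chr16:44485049-44558897, Jam3 at chr9:27097384-27155421, Kirrel at chr3:87078593-87174747 and Vcam1 at chr3:116109949-116129688.

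The order of the members by mean level differed between the groups. At day 3 Cdh15 led, Jam3, Cdh2 and Vcam1 followed with overlapping ranges, then came Cdon and Cdh11, each apart from its neighbours, and last Kirrel, Jam2, Neo1 and Boc, whose ranges overlapped from each to the next. In uninjured muscle Jam2 led, then Cdh15, then Jam3 and Neo1 with overlapping ranges, then Cdon, then Boc, Vcam1, Cdh11 and Kirrel, which overlapped in turn, and Cdh2 stood apart as the lowest.

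The fold changes depend on how the libraries are set to a common scale, and most genes had higher RPKM at day 3. Expressed relative to the median of all genes, the log2 changes were 3.93 for Cdh2, 2.92 for Vcam1, 2.18 for Cdh15, 2.05 for Cdh11, 1.76 for Kirrel, 1.49 for Jam3, 1.16 for Cdon, 0.61 for Boc, -0.96 for Neo1 and -2.13 for Jam2. Median-of-ratios scaling, which brings that median to 0.06, left 53.9% of all calls higher in place of 88.4%. Cdh2, Vcam1, Cdh15, Cdh11, Kirrel, Jam3 and Cdon were still called higher there, Boc was not (log2 fold change 0.68), and Jam2 fell (log2 fold change -2.10). Scaling to 83 cytosolic ribosomal protein genes moved the median to -0.69 and left Cdh2, Vcam1, Cdh15, Cdh11 and Kirrel called higher, with log2 fold changes of 3.29, 2.22, 1.42, 1.37 and 1.11, while Neo1 and Jam2 fell by 1.68 and 2.87 on the log2 scale. These 5 genes were called higher under each of the 20 settings tried. Neo1 changed direction under each of the 4 other scalings, and the direction of Jam2 held in all 20 settings.

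**Figure D3:**
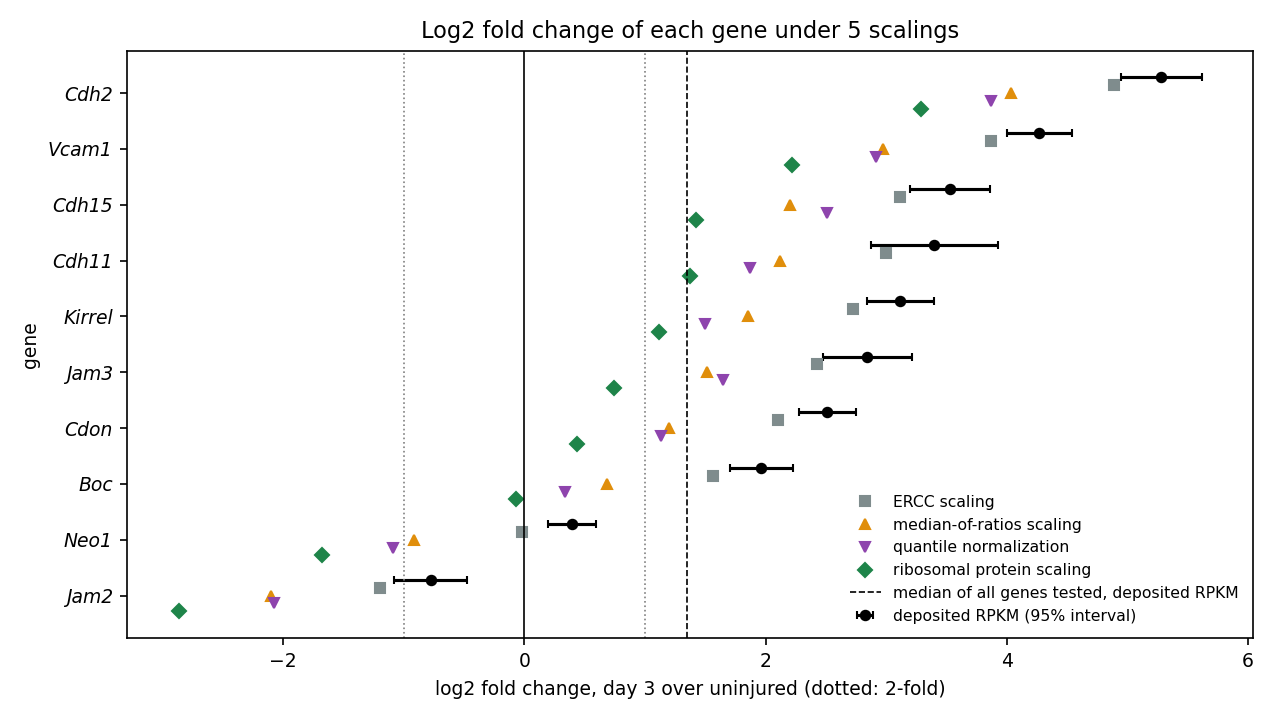
Log2 fold change of each gene, day 3 over uninjured, under the deposited RPKM (black, with the 95% interval) and 4 other scalings, with dotted lines at 2-fold and a dashed line at the median of all genes tested, 1.35. Cdh2, Vcam1, Cdh15, Cdh11 and Kirrel stay right of the 2-fold line under each scaling, and Jam2 stays left of 0.

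The partners of these proteins were read from gene lists. Each list's counts stand beside the 60.5% of all genes tested called higher and the 7.96% called lower, and its median beside 1.35. For list genes, only changes of sign under the other scalings are given. A gene that kept its sign may still have lost its call, as Boc did under median-of-ratios scaling. Of 8 genes that link cadherins to actin, 6 were measured, which here means above the filter on low values, 4 rose and none fell with the deposited RPKM (median log2 fold change 1.60, against 1.35 for all genes tested), and of these 4 Vcl and Ctnnb1 turned negative under ribosomal protein scaling. Ctnna1, alpha-catenin, the bridge from cadherin complexes to actin, had 87.8 ± 7.21 RPKM at day 3 and 16.8 ± 0.572 RPKM in uninjured muscle (SD, n = 3 each; log2 fold change 2.37, SE 0.08, limma adjusted p = 1.66e-07). Ctnnd1 (p120-catenin) rose by 2.24, Vcl (vinculin) by 1.83 and Ctnnb1 (beta-catenin) by 1.37 on the log2 scale. Jup and Mllt4, encoding plakoglobin and afadin, were not called, with log2 fold changes of -0.48 and -0.60. Of 10 other cadherin genes, 3 were measured and none was called: Cdh5, the endothelial cadherin, had 36.4 RPKM at day 3 and 28.9 RPKM uninjured (log2 fold change 0.34), Cdh13 had 18.9 and 31.9 RPKM (-0.77) and Cdh19 had 0.678 and 0.451 RPKM (0.50).

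Among 19 ligands and co-receptors of CDON, BOC and NEO1, 11 were measured, of which 6 rose and 1 fell. This stands beside 60.5% and 7.96% of all genes tested, and the list median of 1.19 lay below the 1.35 of all genes. Rgma and Unc5b of the 6 turned negative under quantile normalization and ribosomal protein scaling, Rgma under median-of-ratios scaling too, and Ntn4 under ribosomal protein scaling. The Hedgehog side of the list was uneven. Gas1, a Hedgehog co-receptor that acts beside CDON and BOC, had 42.2 ± 2.55 RPKM at day 3 and 4.17 ± 0.513 RPKM in uninjured muscle (SD, n = 3 each; log2 fold change 3.31, SE 0.10, limma adjusted p = 1.39e-07). Smo, the signal transducer of the pathway, rose by 3.22 on the log2 scale, whereas the ligand Dhh and the receptor and target gene Ptch1 were not called (0.48 and 0.23).

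The neogenin side held the list's only fall. Hfe2, which encodes hemojuvelin, an RGM family ligand of neogenin made in muscle and liver, had 48.3, 53.7 and 20.0 RPKM at day 3, against 225, 226 and 236 RPKM in uninjured muscle (log2 fold change -2.61, SE 0.35, limma adjusted p = 2.04e-04). The third day 3 library was lowest, as it was for the adult fibre markers, whose sums were 4044, 5954 and 1204 RPKM in the 3 day 3 libraries. The netrins Ntn1 and Ntn4 rose by 2.28 and 1.77 on the log2 scale, Rgma by 1.19 and the netrin receptor Unc5b by 1.37. With a pseudocount of 1, Unc5b missed the 2-fold minimum (0.96). Rgmb (0.29) and Unc5a (-0.46) were not called. Of 6 proteins that act inside the cell downstream of CDON, the small GTPase Cdc42 and the kinase Abl1 rose by 1.96 and 1.78, and both turned negative under ribosomal protein scaling. Bnip2, Ptpn11, Mapk14 and Spag9 were not called, with log2 fold changes of 0.87, 0.47, 0.30 and -0.52. The list median was 0.67, against 1.35 for all genes tested.

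Of 8 relatives and junction partners of the JAMs, 7 were measured and 4 rose, beside 60.5% of all genes tested (median 1.26, against 1.35). Among these 4, Tjp1 turned negative under 3 of the 4 other scalings and F11r under ribosomal protein scaling. Clmp and Cxadr, Ig-type relatives of the JAMs, rose by 3.22 and 3.17 on the log2 scale, the scaffold gene Tjp1 by 1.26, and F11r, which encodes JAM-A, by 1.64. Esam, an endothelial relative, Pard3 and Pard6a were not called (0.33, 0.50 and 0.67). Of 7 genes of the nephrin family and its adaptors, 4 were measured. Cd2ap rose by 1.66, Nphs1 (nephrin) by 1.38 and Nck1 by 1.04, all 3 with negative values under ribosomal protein scaling, Nck1 also under median-of-ratios scaling and quantile normalization, and Nphs1 also under quantile normalization. Nphs1 and Nck1 also missed the 2-fold minimum with a pseudocount of 1 (0.65 and 0.98), and Nck2 was not called at 0.85. Nephrin, which binds KIRREL in the kidney, stood at only 1.19 RPKM at day 3 and 0.393 RPKM in uninjured muscle.

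All 7 genes listed here as integrin receptors of VCAM1 or JAMs rose, beside 60.5% of all genes tested, with a median of 3.93. However, Itga4 and Itgb1 turned slightly negative under ribosomal protein scaling. The largest changes were in the leukocyte integrins Itgb2 (6.66), Itgam (6.41) and Itgax (5.83). All 10 macrophage and monocyte markers were also called higher, and the part of these cells in the integrin values was not tested. Itga4 and Itgb1, the VCAM1 receptor pair, rose by 1.99 and 1.91, and Itgb1 was the most abundant of the 7, with 174 ± 8.60 RPKM at day 3 and 46.1 ± 3.12 RPKM in uninjured muscle (SD, n = 3 each; limma adjusted p = 3.46e-07). Itga9 and Itgb7 rose by 2.63 and 3.93.

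Of 16 other Ig-type adhesion genes, 13 were measured and 10 rose with the deposited RPKM (median 2.44). Of the risen genes in this list, only Alcam, Ncam1 and Pvr were followed under the other scalings, where they kept their direction. Alcam and Ncam1 had the largest changes, 4.57 and 4.52 on the log2 scale, and Pvr was the most abundant at day 3, with 28.4 ± 4.57 RPKM against 2.93 ± 0.187 RPKM in uninjured muscle (SD, n = 3 each). Cadm3, Pecam1 and Cadm4 were not called (0.73, 0.69 and 0.01). Of 21 genes of the fusion machinery, 18 were measured and 16 rose with the deposited RPKM (median 2.73), Nckap1 and Iqsec1 being the exceptions at 0.79 and 0.55. Of the risen genes here, only Tmem8c, Gm7325 and Rac1 were followed under the other scalings. Tmem8c (Myomaker) had 93.7, 57.4 and 66.9 RPKM at day 3, against 0.0169, 0.01 and 0.0939 RPKM in uninjured muscle. Gm7325 (Minion) had 42.7, 28.2 and 28.9 RPKM at day 3, against 0.01, 0.0633 and 0.01 RPKM, where 0.01 is the lowest value in the table. Rac1, a GTPase that drives actin remodelling at the fusion site, was the most abundant, with 155 ± 9.80 RPKM at day 3 and 62.2 ± 1.28 RPKM in uninjured muscle (SD, n = 3 each; log2 fold change 1.32), and turned negative under median-of-ratios and ribosomal protein scaling.

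**Figure D4:**
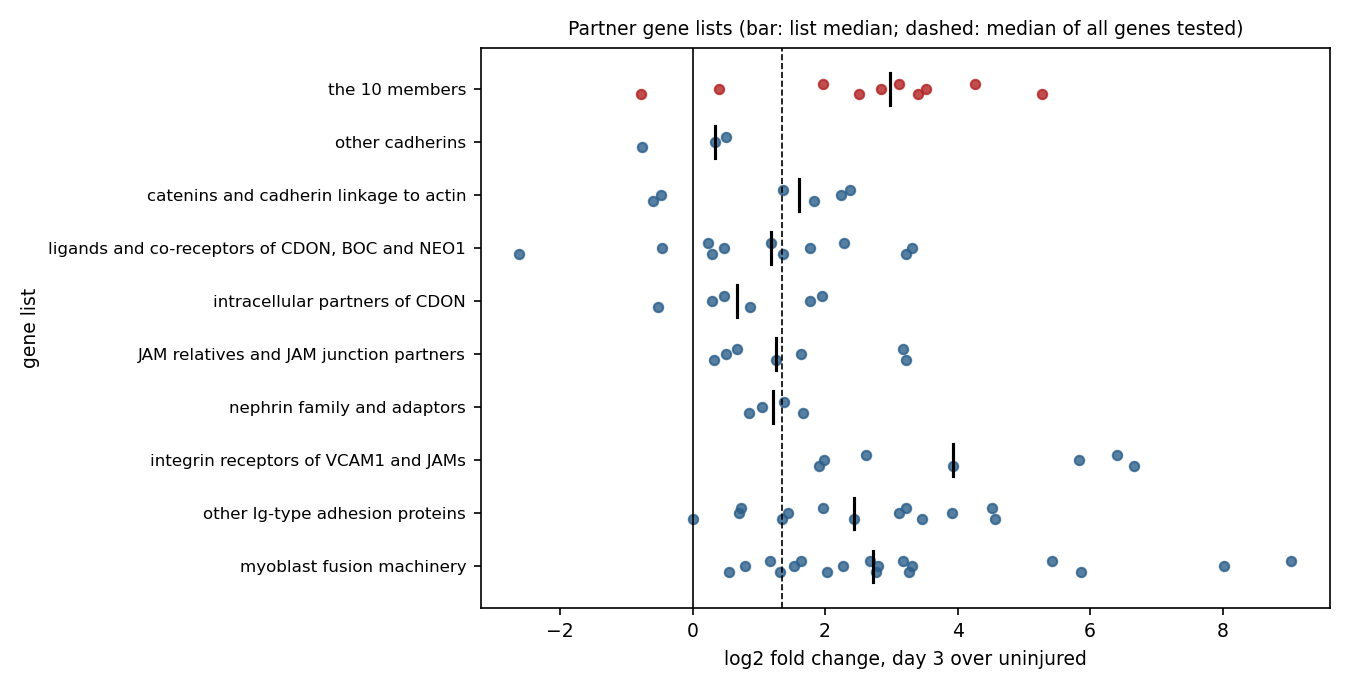
Log2 fold change, day 3 over uninjured, of the 10 genes (red) and of the measured genes of each partner list (blue), all with the deposited RPKM, with a bar at each list's median and a dashed line at 1.35, the median of all genes tested. The integrin list has a median of 3.93 and no gene below 1.91, and the list of other cadherins has a median of 0.34.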

How the data were processed

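Whole TA muscle RNA (1 µg a library, single reads of 50 bases) was sequenced in 3 mice at day 3 after CTX and in 3 uninjured mice, each library from 1 mouse. The authors deposited RPKM values, made from reads aligned to RefSeq mouse transcripts with BWA (their processing notes also list SAMtools 0.1.19 and CASAVA 1.4), and a length for each of 34302 sequences, of which 34206 name a gene and 96, mostly the 92 ERCC spike-ins, do not and stayed out of the tests. The BWA version and the handling of reads that match several transcripts are not given in the sources used here. Library totals were recovered from the RPKM values, taking the smallest product of RPKM and length above the lowest value, 0.01 RPKM, as 1 read. All deposited RPKM values above 0.01 (100% of them) gave whole reads within 0.01 read when multiplied by length and this total. A single read on 1 kb of transcript is worth 0.0232 to 0.0292 RPKM.

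Each symbol was represented by its transcript of highest mean RPKM. limma 3.58.1 (lmFit, eBayes with trend, R 4.3.3) was run on log2(RPKM + 0.1), a scale that understates changes of low genes. Other steps used SciPy 1.17.1, NumPy 2.4.6 and pandas 2.3.3 under Python 3.11.15, and figures matplotlib 3.10.9. The fit was tested on simulated data in which few genes changed, as many up as down. Such data cannot show how the calls depend on the scaling of the libraries. Ratios, as log2 with 0.1 RPKM added to each gene, were compared by exact permutation. Alternatives were the pseudocount, the filter, 4 scalings, no trend, a replicate block, summed transcripts, voom on recovered reads, no fold minimum and leaving out each library.

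The members, partner lists and ratios were chosen with earlier results of these data known. Named are all 10 members and, from each partner list, the 2 largest called changes in each direction, the most abundant gene at day 3, and measured ligands and receptors. The other genes of the partner lists that are named (Cdh13, Cdh19, Jup, Mllt4, Ctnnb1, Vcl, Unc5a, Unc5b, Spag9, Bnip2, Mapk14, Ptpn11, F11r, Tjp1, Pard3, Pard6a, Nck2, Pecam1, Cadm3, Cadm4, Nckap1 and Iqsec1) were chosen after their values were seen. A result on a gene of the JAM partner list is not reported here, and its counts leave that gene out. Nearest patterns were sought for Cdh15 and for the members with the highest and lowest (most negative) log2 fold change. Des, Myh8, Myog, Kdr and Tek, from the marker lists, were also named after their values were seen.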

Additional observations from a re-analysis of the deposited data

Results flagged for a closer look

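The ERCC spike-ins, synthetic RNAs added to each library and not used in the main comparison, took 1.51% ± 0.114 of mapped reads at day 3 and 1.12% ± 0.0717 in uninjured muscle (SD, n = 3 each), with ranges of 1.44% to 1.64% and 1.06% to 1.20% that did not overlap. They were picked out as a signal outside the main measurement that was higher at day 3 than in the controls. With libraries scaled to them, the 8 members called higher remained so, Jam2 fell by 1.19 on the log2 scale and Neo1 stood at -0.02.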

How the results depend on the processing

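The scaling of the libraries moved the results most. Over all genes, 8740 were called higher and 1150 lower with the deposited RPKM, against 3801 and 3254 under median-of-ratios scaling, 3460 and 3561 under quantile normalization, 2348 and 5881 under ribosomal protein scaling, and 6977 and 1589 under ERCC scaling, so that 88.4%, 53.9%, 49.3%, 28.5% and 81.4% of calls were higher. Members called higher numbered 8, but 7 under median-of-ratios scaling and quantile normalization (Boc lost) and 5 under ribosomal protein scaling (Boc, Cdon and Jam3 lost). Members called lower numbered 1 under median-of-ratios and ERCC scaling (Jam2) and 2 under quantile normalization and ribosomal protein scaling (Neo1 and Jam2). Without a fold minimum, 2033 genes were lower, and 1 member, Jam2. Pseudocounts of 0.01 and 1, other filters, no trend, summed transcripts, voom and leaving out each library kept 8 members higher and 0 lower. Under median-of-ratios scaling, 22 named genes turned negative: Neo1 -0.92, Cdh5 -1.002, Dhh -0.68, Ptch1 -1.05, Rgma -0.14, Rgmb -1.03, Esam -1.01, Nck1 -0.29, Rac1 -0.025, Cdh19 -0.63, Bnip2 -0.46, Mapk14 -1.03, Ptpn11 -0.86, Tjp1 -0.058, Pard3 -0.80, Pard6a -0.55, Nck2 -0.47, Pecam1 -0.64, Cadm3 -0.54, Cadm4 -1.22, Nckap1 -0.55 and Iqsec1 -0.78. Under quantile normalization, 23 named genes turned negative: Neo1 -1.09, Cdh5 -0.57, Dhh -1.54, Ptch1 -1.44, Rgma -0.014, Rgmb -1.02, Esam -0.76, Nphs1 -0.50, Nck1 -0.055, Cdh19 -1.57, Unc5b -0.30, Bnip2 -0.35, Mapk14 -0.96, Ptpn11 -0.72, Tjp1 -0.10, Pard3 -1.07, Pard6a -1.15, Nck2 -0.53, Pecam1 -0.37, Cadm3 -0.97, Cadm4 -1.79, Nckap1 -0.23 and Iqsec1 -0.74. Under ribosomal protein scaling, 34 named genes turned negative: Boc -0.068, Neo1 -1.68, Cdh5 -1.78, Dhh -1.35, Ptch1 -1.78, Ntn4 -0.29, Rgma -0.92, Rgmb -1.80, Cdc42 -0.16, Abl1 -0.31, Esam -1.78, Cd2ap -0.43, Nphs1 -0.46, Nck1 -1.07, Itgb1 -0.21, Itga4 -0.098, Rac1 -0.81, Cdh19 -1.29, Ctnnb1 -0.75, Vcl -0.28, Unc5b -0.66, Bnip2 -1.23, Mapk14 -1.80, Ptpn11 -1.64, F11r -0.45, Tjp1 -0.83, Pard3 -1.55, Pard6a -1.26, Nck2 -1.24, Pecam1 -1.42, Cadm3 -1.27, Cadm4 -1.92, Nckap1 -1.33 and Iqsec1 -1.55. Under ERCC scaling, 7 named genes turned negative: Neo1 -0.018, Cdh5 -0.086, Ptch1 -0.17, Rgmb -0.12, Esam -0.092, Mapk14 -0.12 and Cadm4 -0.37. The cause of these reversals was not tested beyond the shift of all genes. Leaving out 1 library at a time moved Cadm4 between -0.16 and 0.19, and the log2 ratio of Cdh15 to Cdh11 between -0.079 and 0.34, negative without the third uninjured library. Libraries of the same replicate number did not deviate together (correlations of -0.06, 0.09 and 0.02 for numbers 1, 2 and 3). They share only a number, and a fit with the replicate number as a block called 8743 genes higher and 1149 lower, 8 members higher and 0 lower. With 3 mice a group, the ratios cannot pass 0.05.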

Other observations

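The members did not rank the 3 day 3 mice alike. The second day 3 library had the lowest value for 7 members (Cdh15, Cdh2, Cdh11, Cdon, Jam3, Kirrel and Vcam1), and it was the lowest of the 3 in 38.7% of all genes tested. Boc, Neo1 and Jam2 were lowest in replicate 3 (30.7% of all genes) and no member was lowest in replicate 1 (30.6%). The second library also had the highest adult fibre marker sum, 5954 RPKM against 4044 and 1204 RPKM in replicates 1 and 3, and the part of that difference in the members' values was not tested.

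The genes nearest to 3 members were found by Euclidean distance of log2(RPKM + 0.1), centred on each gene's mean, over the 6 libraries and 8093 genes of at least 5 RPKM on average. With 2 groups of 3, the distance mostly reflects the size of the day 3 difference. Nearest to Cdh15 were Vgll3 (distance 0.21), Scx (0.25) and Lima1 (0.27). Nearest to Cdh2 were Lass6 (0.27), Tubb6 (0.29) and Iqsec3 (0.29), and nearest to Jam2 were Araf (0.09), Usp47 (0.12) and Gm20300 (0.14). Scx, a tendon transcription factor, averaged 32.7 RPKM at day 3 and 2.43 RPKM in uninjured muscle, and Araf, a kinase, 13.5 and 22.8 RPKM.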
